A study of Sus scrofa with 16 samples.

Results

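Of 10 genes that mark dividing cells, 9 were found by their symbol among the 25880 genes of the pituitary count table, and all 9 passed the filter on low counts. These were BIRC5, MKI67, TOP2A, CDK1, CCNB1, AURKB, BUB1, RRM2 and UBE2C. CCNA2, which encodes cyclin A2, is not analysed here. The members were chosen by their known role, but with earlier results of these data known. The study had also listed BIRC5 as differentially expressed from these same libraries, so the difference in BIRC5 is not independent evidence. The libraries came from whole pituitaries of 16 unrelated female Puławska pigs, a native Polish breed kept without selection pressure. Feed conversion, the amount of feed needed for a given gain in weight, was low in 8 gilts (LFC, numbered 1 to 8) and high in the other 8 (HFC, numbered 9 to 16). All gilts were untreated, had the same housing and feed, and are labelled as 3 months old, although in the methods of the study they were older when slaughtered. The test ended near a set body weight, and by the study's trait data HFC gilts spent more days in it than LFC gilts. Time in test thus differed with group, and its part in the results was not tested. Each library is a separate animal.

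Cells that divide copy their DNA in S phase, separate the chromosomes in mitosis and then split. The genes for this work are switched on together at set points of the cycle and are nearly silent in resting cells, so their mRNA in a tissue follows the share of cells in the cycle. Endocrine cells of the pituitary after birth divide slowly. In a whole gland, more cycling cells and more of these mRNAs per cycling cell cannot be told apart.

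Library depth was 18.4 ± 3.36 M counts for LFC and 15.2 ± 3.24 M for HFC. Here and below, ± gives the SD over n = 8 libraries. The glands carried their defining markers, since the 6 anterior hormone genes found summed to between 83900 and 257000 CPM per library, where CPM is the count of a gene scaled to a common library size. Fat markers, checked because the labels' extraction text mentions fat, were low, with ADIPOQ, PLIN1, LEP and FABP4 at 3.07 to 21.3 CPM in sum. On the first principal component of log2 CPM, LFC replicate 5 (126.0), HFC replicate 13 (75.1) and HFC replicate 14 (56.6) lay apart from the other libraries (-53.4 to 11.3). HFC replicate 16 lay apart on the second (-86.7, against -47.5 to 25.7). Markers of the posterior and intermediate lobes were set beside the groups. Of the 5 posterior lobe glia genes found, 5 were higher in HFC, 3 of them at an unadjusted edgeR p under 0.05, where the shares of all genes were 48.4% and 4.29%. Their summed level ran from 200 to 655 CPM in LFC and from 82.4 to 2170 CPM in HFC. On average most of it was VIM (325 ± 140 CPM for LFC and 657 ± 630 CPM for HFC). RAX averaged 0.588 ± 0.922 CPM for LFC and 8.1 ± 11.7 CPM for HFC. Of the 5 melanotroph genes, 4 were higher in HFC (POMC, PAX7, PCSK2 and TBX19) and SCG2, a granin also made by other endocrine cells, was lower (log2 fold change -0.86), all 5 at an unadjusted edgeR p under 0.05 and none called. Their summed level ran from 10200 to 81400 CPM in LFC and from 26300 to 248000 CPM in HFC. On average most of it was POMC, which is also among the anterior hormone genes, so this sum does not measure the intermediate lobe alone. PAX7 averaged 1.19 ± 1.13 CPM for LFC and 49.4 ± 115 CPM for HFC, and PCSK2 9.92 ± 9.3 CPM and 405 ± 891 CPM. In HFC both SDs exceeded the means, so few libraries carried much of these averages. The highest counts in any 1 library were 5526 for PAX7 and 43099 for PCSK2. No gene of either list was at 0 in all libraries. The part of lobe composition in the results that follow was not tested.

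All 9 members were expressed at a low level, with 6 to 283 counts per library, and varied widely between animals. The highest library was between 3.45-fold (AURKB) and 11.4-fold (TOP2A) above the lowest. Counting error alone is wide at the low end, so that 6 counts of BUB1 in HFC replicate 13 had a 95% exact Poisson interval of 2.2 to 13.1. No member's span met that of another gene placed in the deposited table or of a named protein-coding RefSeq gene on Sscrofa11.1. This bears on counts from libraries that keep no strand. Non-coding RefSeq genes, and those without an assigned gene name, were not searched. The deposited table does not place every counted gene, and CDK1, BUB1 and UBE2C are missing from it.

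**Figure D1:**
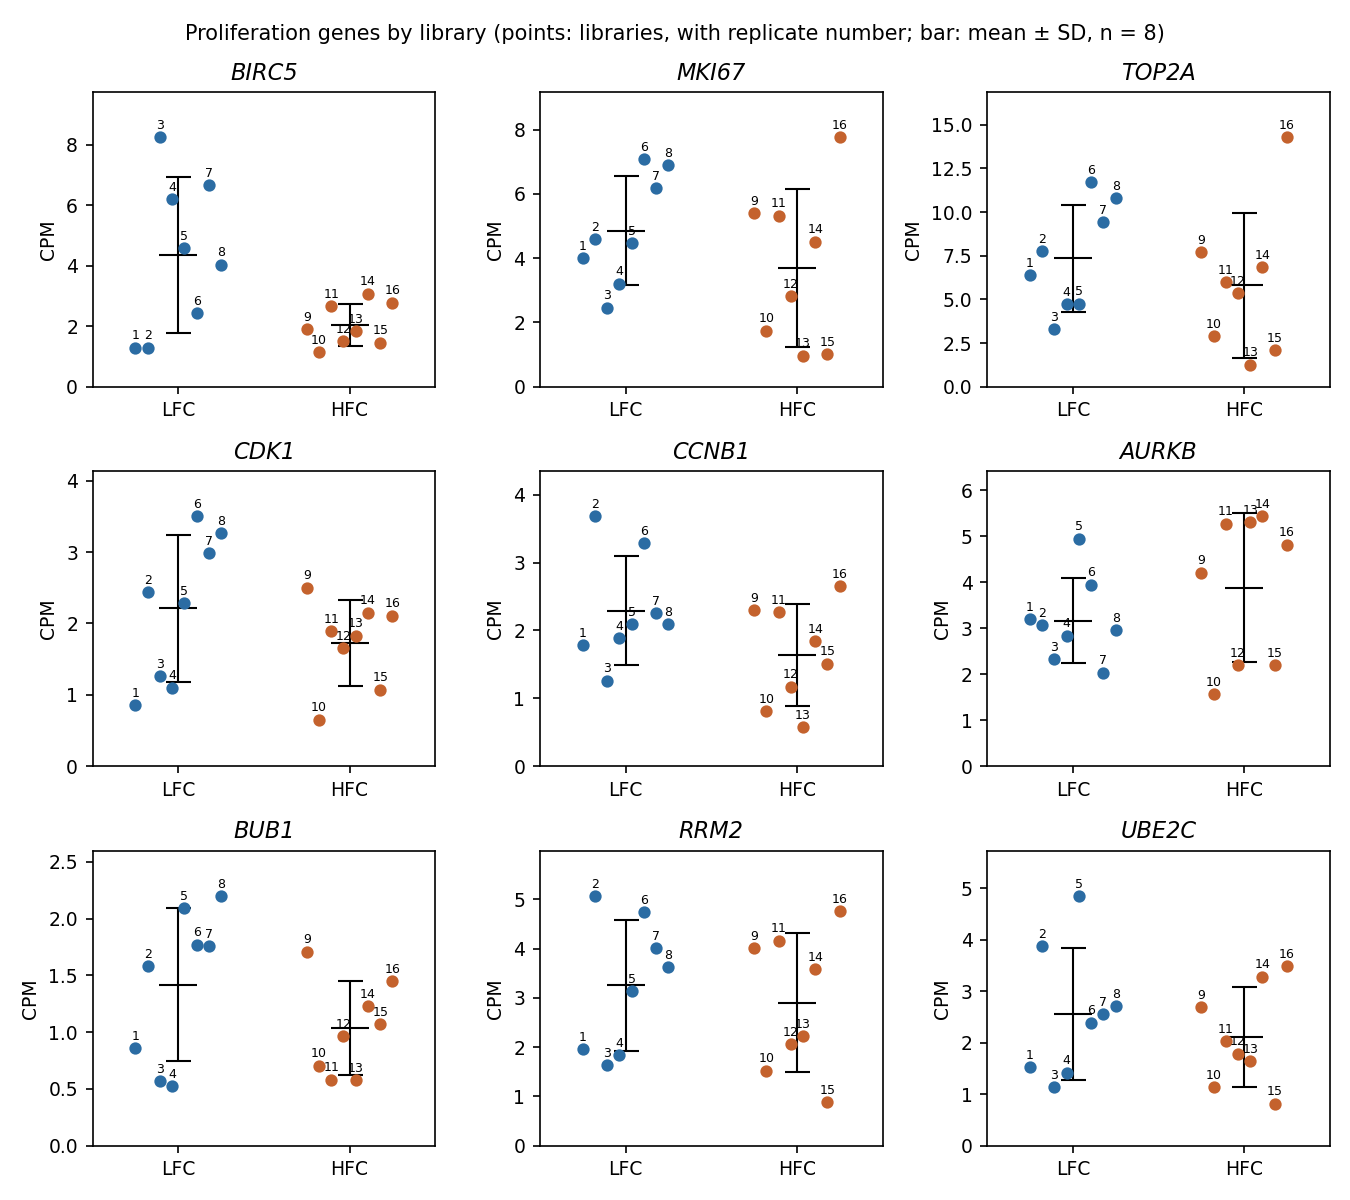
CPM of the 9 proliferation genes found (vertical axis, from 0) in each LFC and HFC library, with replicate numbers, and the mean ± SD of each group (n = 8). In 5 of 8 LFC libraries BIRC5 was above every HFC library, while for the other genes this held in 0 to 4.

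The first question was whether the markers of division differed with feed conversion. The DNA replication member was RRM2, the small subunit of ribonucleotide reductase, which makes the building blocks of DNA. RRM2 (chromosome 3, 126356655 to 126365644) ranged from 1.64 to 5.07 CPM in LFC, with a median of 3.38, and from 0.88 to 4.76 CPM in HFC, with a median of 2.90. HFC over LFC, the log2 fold change in edgeR was -0.17 (SE 0.34) at an adjusted p of 1.0, and 4 of 8 HFC gilts lay under the average log2 CPM of the LFC gilts.

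Ki-67 and topoisomerase II alpha are the broad markers of division. MKI67 encodes the Ki-67 protein that coats mitotic chromosomes and is used to count cycling cells. MKI67 (chromosome 14, 137265908 to 137296312) ranged from 2.46 to 7.08 CPM in LFC (median 4.53) and from 0.966 to 7.77 CPM in HFC (median 3.66). Both its lowest and its highest library were HFC, replicates 13 and 16. In edgeR the log2 fold change was -0.40 (SE 0.39) with an adjusted p of 1.0. It was -0.64 without HFC replicate 16 and -0.25 without HFC replicate 15. TOP2A, a topoisomerase that untangles replicated DNA, had the same extremes. TOP2A (chromosome 12, 22001436 to 22031112) ranged from 3.28 to 11.7 CPM in LFC (median 7.06) and from 1.26 CPM in HFC replicate 13 to 14.3 CPM in HFC replicate 16 (median 5.68). In edgeR its log2 fold change was -0.34 (SE 0.41) with an adjusted p of 1.0. Leaving out HFC replicate 16 took it to -0.68, and leaving out HFC replicate 13 or 15 took it to -0.19 or -0.21.

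CDK1, the kinase that starts mitosis, and CCNB1, its partner cyclin B1, were also measured. CDK1 (RefSeq, chromosome 14, 64233945 to 64255290) averaged 2.21 ± 1.03 CPM over the LFC gilts, against 1.73 ± 0.604 CPM over the HFC gilts. CCNB1 (chromosome 16, 47338072 to 47349846) averaged 2.29 ± 0.803 CPM in LFC, against 1.64 ± 0.751 CPM in HFC. Their log2 fold changes were -0.36 (SE 0.33) and -0.48 (SE 0.31), with edgeR adjusted p-values of 1.0 and 0.986. For both genes 5 of 8 HFC gilts lay under the LFC average.

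BUB1 is a kinase of the spindle checkpoint, which holds a cell in mitosis until each chromosome is attached. UBE2C is the ubiquitin-conjugating enzyme that helps end mitosis by marking cyclins for destruction. BUB1 (RefSeq, chromosome 3, 45585188 to 45623240) averaged 1.42 ± 0.672 CPM in LFC, against 1.03 ± 0.412 CPM in HFC, and its log2 fold change was -0.45 (SE 0.34). UBE2C (RefSeq, chromosome 17, 48018403 to 48021542) averaged 2.56 ± 1.28 CPM and 2.11 ± 0.968 CPM, and its log2 fold change was -0.28 (SE 0.34). The edgeR adjusted p was 1.0 for both. LFC replicate 5 was the highest library for UBE2C (4.85 CPM), and the log2 value was -0.09 without it and -0.42 without HFC replicate 16.

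AURKB and BIRC5 act in the same protein assembly. Aurora kinase B is the enzyme, and survivin, the BIRC5 product, is the subunit that places it on the chromosomes. Survivin is also counted among the inhibitor of apoptosis proteins. AURKB (chromosome 12, 53410969 to 53415427) ranged from 2.03 to 4.95 CPM in LFC (median 3.01) and from 1.57 to 5.43 CPM in HFC (median 4.51). AURKB was the only one of the 9 with a positive log2 fold change, 0.29 (SE 0.28, edgeR adjusted p = 1.0), which was 0.08 without LFC replicate 5 and HFC replicates 13, 14 and 16.

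BIRC5 (chromosome 12, 3747271 to 3755207) ranged from 1.29 to 8.25 CPM in LFC (median 4.3) and from 1.14 to 3.07 CPM in HFC (median 1.87). The high libraries were LFC replicates 3 (8.25 CPM), 7 (6.65 CPM), 4 (6.20 CPM), 5 (4.57 CPM) and 8 (4.03 CPM), all above the highest HFC library. LFC replicates 1 and 2, at 1.29 CPM each, lay within the HFC range, so the groups overlapped. These levels rest on 19 to 151 counts per library. The group means were 4.34 ± 2.58 CPM for LFC and 2.04 ± 0.706 CPM for HFC.

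For BIRC5 the log2 fold change was -1.09 (SE 0.38), the largest in size of the 9, with an edgeR p of 0.01 and an adjusted p of 0.647 over all genes. All 8 HFC gilts lay under the LFC average of log2 CPM. On log2 CPM the difference in means was -0.84, with a two-sided exact permutation p of 0.0513 (1.0 adjusted over all genes). The log2 fold change stayed between -1.23 (without LFC replicate 1) and -0.89 (without LFC replicate 3) when any library was left out.

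Counted together, 0 of the 9 members were called by edgeR, a call being an adjusted p up to 0.05 together with a change of 1.3-fold or more, where 0 of all 14319 genes tested (0.0%) were called. DESeq2 also called 0 of the 9, where it called 20 of the 16944 genes it gave an adjusted p (0.118%). Its adjusted p for BIRC5 was 0.279, whereas the study, also by DESeq2 at these thresholds, had listed BIRC5 as differentially expressed. The cause of this difference was not tested. In limma-voom, 0 of the 9 and 0 of all genes (0.0%) were called. At an unadjusted edgeR p under 0.05, 1 member was lower in HFC (BIRC5), where the share of all genes was 1.53%, and 0 were higher, where it was 4.29%. The log2 fold change was below 0 for 8 of the 9, against 51.6% of all genes. The median over the members was -0.36, and over all genes -0.01. The members other than BIRC5 were correlated over libraries, so their directions are not separate observations. The median was -0.54 without HFC replicate 16, -0.25 without HFC replicate 10, and -0.52 without LFC replicate 5 and HFC replicates 13, 14 and 16.

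**Figure D2:**
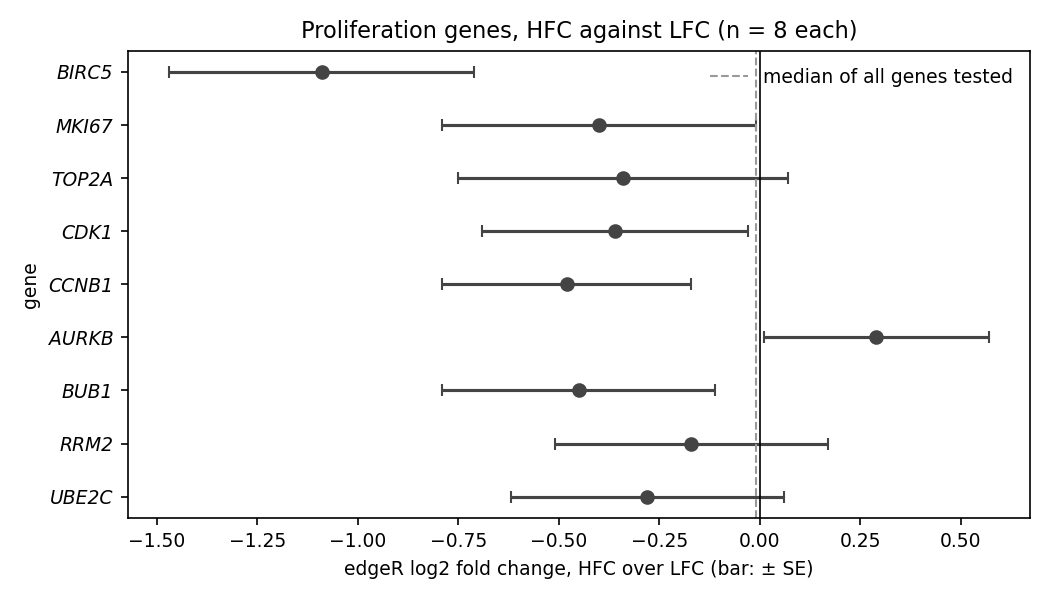
edgeR log2 fold change of each proliferation gene, HFC over LFC (points, with bars of ± SE; n = 8 libraries in each group), with 0 as a solid line and the median of all genes tested (-0.01) as a dashed line. BIRC5 lies at -1.09, AURKB at 0.29 and the other 7 genes between -0.48 and -0.17.

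The other genes of the cell cycle were read from the same fit. Over all genes, 51.6% were lower in HFC, the share to set beside each list of the cell cycle. Of 34 further mitotic genes, 0 were called, 29 were lower and 5 higher in HFC, and 0 had an unadjusted edgeR p under 0.05. Most of these 34 rose and fell with MKI67 over libraries, as given below, so their directions are not separate observations. Their median log2 fold change was -0.13. Examples from the low end were CDCA3 (-0.74, SE 0.40), HMMR, a spindle protein (-0.59, SE 0.43), and CCNB2, a second B-type cyclin (-0.51, SE 0.30). PLK1, a mitotic kinase, was at -0.39 (SE 0.27), and CDC20, which activates the end of mitosis, at -0.02 (SE 0.23). The 5 higher genes were ANLN (0.25, SE 0.34), MAD2L1 (0.12, SE 0.17), KIF23 (0.11, SE 0.32), NUF2 (0.10, SE 0.22) and KIF4A (0.07, SE 0.24). Of 25 DNA replication genes, 0 were called, 17 were lower and 8 higher, with a median of -0.13. MCM2, a subunit of the replicative helicase (-0.38, SE 0.18), and ORC1, which marks the origins of replication (-0.55, SE 0.26), each had an unadjusted p of 0.0492 and an adjusted p of 0.856 in edgeR. PCNA, the sliding clamp of the DNA polymerase, averaged 29.9 ± 3.37 CPM for LFC and 29.6 ± 2.76 CPM for HFC (log2 fold change -0.02, SE 0.10).

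Among 18 tested genes of G1 and cycle control, 0 were called and 11 were lower in HFC, with a median of -0.02. CCND2, cyclin D2, averaged 53.7 ± 10.3 CPM for LFC and 69.9 ± 20.3 CPM for HFC, and its log2 value was 0.38 (SE 0.17) at an edgeR adjusted p of 0.811. The 8 inhibitors of cyclin-dependent kinases split evenly, 4 higher and 4 lower, with 0 called and a median of 0.02. The log2 fold change was 0.23 (SE 0.15) for CDKN1B, and -0.72 (SE 0.31) at an edgeR adjusted p of 0.813 for CDKN2A. Both encode brakes on the G1 kinases.

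Genes linked to BIRC5 were read in both of its roles. INCENP, the scaffold of the assembly that holds AURKB, averaged 5.51 ± 1.11 CPM for LFC and 5.35 ± 1.06 CPM for HFC (log2 fold change -0.04, SE 0.17). CDCA8, which encodes its borealin subunit, averaged 2.33 ± 0.959 and 1.88 ± 0.617 CPM (log2 fold change -0.31, SE 0.29). With AURKA and RCC2, 0 of 4 genes tested were called, and the median was -0.16, while SGO1 did not pass the filter. All 4 were below 0, where 51.6% of all genes were. AURKB, counted among the members and not among these 4, was at 0.29 (SE 0.28). Of the inhibitor of apoptosis family, BIRC3 (0.01, SE 0.17), BIRC6 (-0.03, SE 0.30) and XIAP (0.06, SE 0.20) could be tested, and 0 of the 3 were called. BIRC2, NAIP and BIRC7 are not analysed here.

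The second question was whether BIRC5 followed the other 8 members from gland to gland. Over the 16 libraries, the 28 pairs among the other 8 had Pearson r values of log2 CPM from 0.14 to 0.96, with a median of 0.64. The 8 pairs with BIRC5 had r values from 0.04 to 0.32, with a median of 0.16. The pairs share the same libraries and the members were measured at few counts, so these medians are descriptions.

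**Figure D3:**
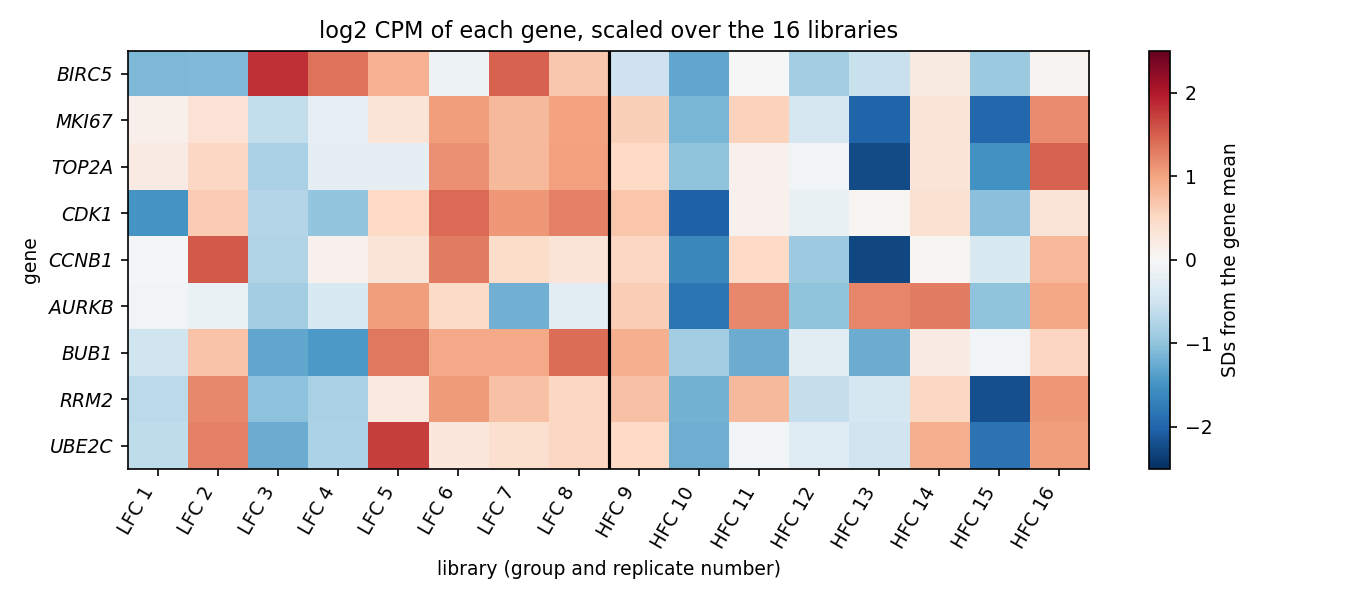
log2 CPM of each gene (rows) in each library (columns, LFC left and HFC right of the line), scaled to SDs from the gene's mean over the 16 libraries (colour). LFC replicates 3 and 4 are high for BIRC5 and in the lower 8 libraries for each other gene, and HFC replicate 10 is among the lowest 5 for all 9.

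Individual glands showed where BIRC5 and the rest parted. LFC replicate 3 ranked 16 of 16 (highest) for BIRC5, while its ranks for the other 8 members ran from 2 to 5. LFC replicate 4 ranked 14 for BIRC5 and 1 to 8 for the others. In the opposite direction, LFC replicate 2 ranked 3 for BIRC5 and 8 to 16 for the others, and LFC replicate 6 ranked 8 and 9 to 16. HFC replicate 10 was low for BIRC5 (rank 1) and for the others (1 to 5). BIRC5 minus the mean of the other 8 on log2 CPM thus ran from -1.42 (replicate 2) to 2.32 (replicate 3) in LFC and from -0.809 to 0.343 in HFC. The SD of this difference was 1.27 in LFC and 0.379 in HFC (n = 8 each).

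MKI67 was taken as the reference for the rest. Each of the other 8 members was compared with it over the 16 libraries, and the same test was run for all 14318 other genes. TOP2A had r = 0.96 and rho = 0.96 with MKI67, each with a permutation p of 1e-05, the smallest that 100000 permutations can give, and an adjusted p for r of 0.0205 over all genes. Of all genes, 12 (0.0838%) passed this adjusted p of 0.05 with a positive r, and TOP2A was 1 of them and the only member. RRM2 (r = 0.84, rho = 0.84, adjusted permutation p = 0.0527) and CCNB1 (r = 0.82, rho = 0.87, adjusted permutation p = 0.0689) ranked 16 and 24 of 14318 by r. UBE2C (r = 0.73, rho = 0.69), CDK1 (r = 0.65, rho = 0.78) and BUB1 (r = 0.61, rho = 0.68) ranked 71, 170 and 291, with unadjusted permutation p-values for r of 0.00114, 0.00657 and 0.0117. Without HFC replicates 13 and 15, the libraries farthest from the MKI67 median, r was 0.93 for TOP2A and 0.68 to 0.88 for these 5 members.

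AURKB and BIRC5 stood apart from this order. Both had r = 0.32 with MKI67 (permutation p = 0.231 and 0.233), and they ranked 3158 and 3173. Without HFC replicates 13 and 15, r was 0.61 for AURKB and 0.15 for BIRC5. HFC replicate 13, which lay apart on the first principal component, was lowest for MKI67 (10 counts) but at 5.31 CPM for AURKB, near its highest value.

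**Figure D4:**
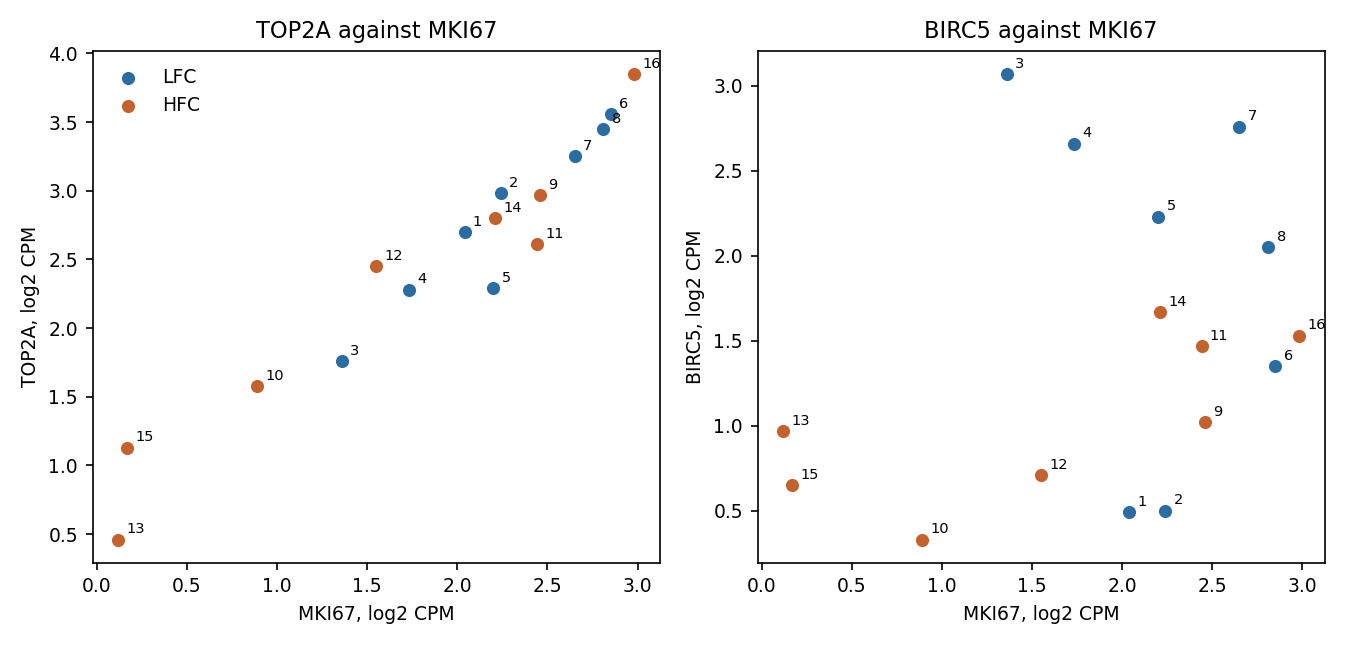
log2 CPM of TOP2A (left) and BIRC5 (right) against that of MKI67 in the 16 libraries, coloured by group and marked with replicate numbers. TOP2A lies along a line (r = 0.96), whereas BIRC5 does not (r = 0.32), with LFC replicates 3 and 4 high for BIRC5 and LFC replicates 1 and 2 low.

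With BIRC5 as the reference, 0 of the 8 members and 0 of all 14318 genes (0.0%) passed an adjusted permutation p of 0.05, with a positive or a negative r. The member nearest to it by r, MKI67, ranked 602, and CDK1 (r = 0.29, rho = 0.38) ranked 713. AURKB (r = 0.04, rho = 0.10, permutation p = 0.874) and BUB1 (r = 0.04, rho = 0.11, permutation p = 0.882) ranked 5727 and 5792. Without LFC replicates 3 and 7, the libraries farthest from the BIRC5 median, r ranged from 0.16 to 0.43. A p above the threshold does not show that BIRC5 and the others are unrelated.

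Within groups, r with BIRC5 had opposite signs for each member but CDK1. In the 8 HFC libraries BIRC5 had r values from 0.25 (BUB1) to 0.89 (AURKB) and rho values from 0.38 (BUB1) to 0.90 (UBE2C). The smallest exact permutation p for r there was 0.00689, for AURKB, but its adjusted p was 0.563, with 0 of the 8 members and 0 of all genes (0.0%) past 0.05. In the 8 LFC libraries r ran from -0.59 (CCNB1, exact permutation p = 0.12) to 0.02 (CDK1) and rho from -0.67 (AURKB, exact permutation p = 0.0831) to -0.02 (CDK1), again with 0 members and 0 of all genes (0.0%) past 0.05 when adjusted. Without the 2 libraries farthest from the BIRC5 median of each group, r ran from -0.04 to 0.85 in HFC and from -0.87 to -0.49 in LFC. The difference between the groups was not tested.

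The genes most like the members were then named, with group means removed, by Pearson r with the mean of the scaled members over the 16 libraries. The nearest 10 outside the list were NEK2 (0.96), TPX2 (0.95), KIF20A (0.94), PCLAF (0.87), KIF23 (0.87), CENPA (0.87), BUB1B (0.87), GIPC3 (0.87), PER3 (0.87) and CDCA5 (0.86). NEK2 and BUB1B are kinases of mitosis, TPX2, KIF20A and KIF23 work on the spindle, CENPA marks the centromere, PCLAF binds PCNA and CDCA5 holds sister chromatids together. PER3 is a gene of the circadian clock. Against the mean of the other members, RRM2 (0.89) and MKI67 (0.87) each took rank 4 among 14311 genes, UBE2C (0.84) rank 14, CDK1 (0.80) rank 23, TOP2A (0.78) rank 27, CCNB1 (0.73) rank 54, BUB1 (0.63) rank 222 and AURKB (0.51) rank 548. BIRC5 took rank 5954, with r = 0.08.

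The wider lists were set against the same references. The 34 further mitotic genes had a median r of 0.66 with MKI67, with 33 above 0, and of 0.21 with BIRC5, with 29 above 0. For the 25 replication genes the medians were 0.35, with 19 above 0 and values from -0.79 (GMNN, geminin, which blocks origin licensing) to 0.82, and 0.18, with 22 above 0. FOXM1, the transcription factor that drives mitotic genes, had r = 0.92 with MKI67 and 0.24 with BIRC5. Over all genes the medians were 0.04 for MKI67 and -0.0 for BIRC5. INCENP had r = -0.10 and CDCA8 r = 0.11 with BIRC5.

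**Figure D5:**
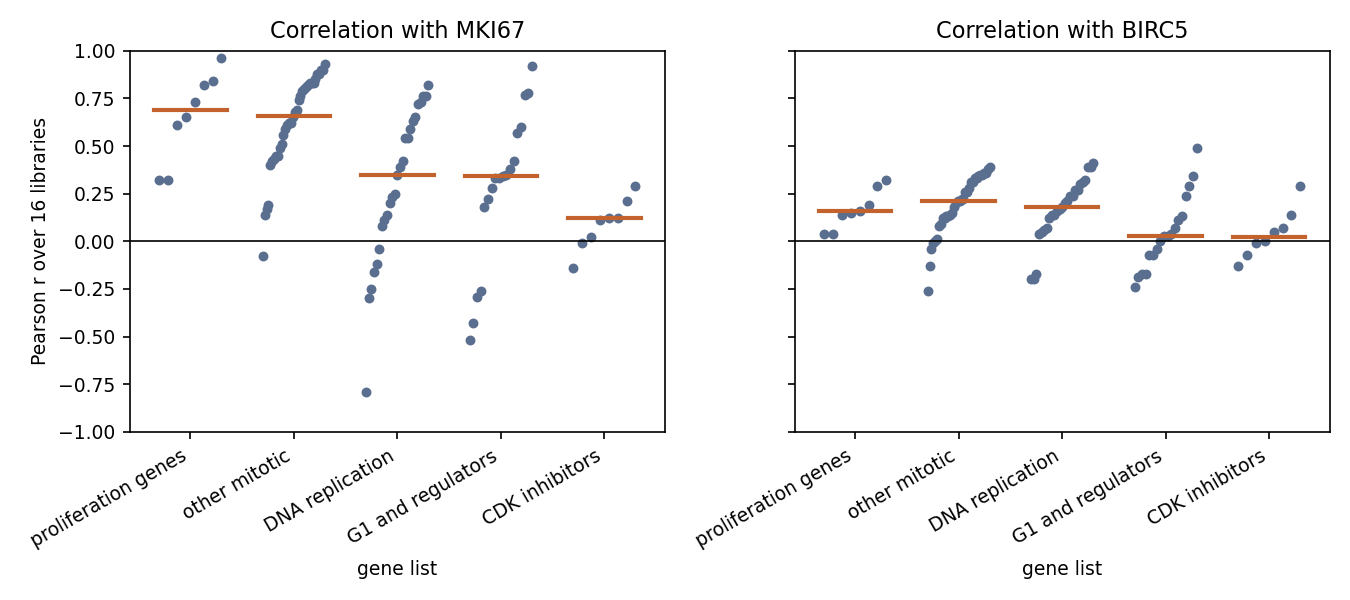
Pearson r over the 16 libraries of each gene with MKI67 (left) and with BIRC5 (right), by gene list (points, sorted within a list; line: median). The medians of the proliferation and further mitotic genes are 0.69 and 0.66 with MKI67, and 0.16 and 0.21 with BIRC5.

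Markers of other cells in the gland were set beside both references. With BIRC5, r ran from 0.28 to 0.50 for the 4 erythroid genes tested. All 4 were lower in HFC (median log2 fold change -0.54, 0 at an unadjusted edgeR p under 0.05), where 51.6% of all genes were lower. The erythroid sum over the 5 found was 79.5 to 1290 CPM in LFC and 81.3 to 899 CPM in HFC. For the 7 lymphoid genes tested, r with BIRC5 ran from -0.30 (CD79B) to 0.62 (CD79A), so these genes did not go together. Their sum over the 8 found was 38.0 to 63.7 CPM in LFC and 37.3 to 83.3 CPM in HFC. On average most of this sum was CD79A and CD79B. CD79A averaged 32.7 ± 10.1 CPM for LFC and 25.4 ± 5.03 CPM for HFC, and CD79B 9.4 ± 3.56 CPM and 17.8 ± 17.5 CPM. MS4A1 did not pass the filter. The r with BIRC5 ran from -0.12 to 0.17 for 8 macrophage genes (96.4 to 537 CPM in LFC and 165 to 381 CPM in HFC). For 5 posterior lobe genes it ran from -0.16 to 0.29, and for 5 melanotroph genes from -0.38 to 0.06. For 4 stem cell genes it ran from -0.13 to 0.04, and for 6 endothelial genes from 0.00 to 0.28. All 6 endothelial genes were lower in HFC (median log2 fold change -0.2, 0 at an unadjusted edgeR p under 0.05). With MKI67, r ran from -0.11 to 0.66 for the endothelial genes (214 to 513 CPM in sum for LFC, 199 to 365 CPM for HFC), from -0.36 to 0.46 for the macrophage genes, from -0.63 to 0.26 for the lymphoid genes and from -0.04 to 0.28 for the posterior lobe genes. None of these genes was at 0 in all libraries. The part of these cells in the levels of BIRC5 was not tested. AFMID, the nearest gene of the deposited table, 4479 bp away from BIRC5, had r = 0.25 with it and averaged 8.42 ± 1.93 CPM for LFC and 10.3 ± 5.55 CPM for HFC.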

How the data were processed

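Reads were filtered by the authors using Flexbar after FastQC and aligned to Sscrofa11.1. The study's methods name both Bowtie 2 and RSEM with STAR, and the submitters' processing notes list the latter pair. The authors deposited counts per gene as whole numbers, 1 column per library. Whether these are rounded estimates is not given in the sources used here. The library preparation kept no strand. A second deposited table holds the authors' group means, fold changes and p-values. Only its symbols and coordinates were used. Symbols came from it (10091 genes), from a table of Ensembl names (5454) and, outside the members, from RefSeq genes covering 50% or more of the span (320). CDK1, BUB1 and UBE2C were placed by RefSeq.

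HFC was tested against LFC in R 4.3.3 by edgeR 4.0.16 (glmQLFit and glmQLFTest on all 16 libraries, TMM scaling, filterByExpr, no covariate). The filter removed 11561 genes. A call needed a Benjamini-Hochberg adjusted p up to 0.05 and a change of 1.3-fold or more. CPM used TMM library sizes and log2 CPM a prior count of 2. Exact permutation tests used all 12870 assignments of 8 of 16 libraries, two-sided, and correlations used 100000 permutations of libraries, or all orders within a group, two-sided, each adjusted over all genes (scipy 1.17.1). Tests were checked on simulated data. No pair of libraries of a group was a duplicate, with a smallest chi-square per degree of freedom of 23.4 over 56 pairs.

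Totals ran from 11.0 to 23.1 M counts. Poisson intervals cover counting error only. The members and lists were chosen with earlier results of these data known. Named genes are members of these lists and the 10 genes most like the members. AFMID, the neighbour of BIRC5, and the genes most like BIRC5 alone fall outside this rule and were chosen after their values were seen. Fat markers and the fit on 12 libraries were added after the data were seen. Alternatives were DESeq2 1.42.0, limma-voom 3.58.1, other scalings and filters, a robust fit, 1 surrogate variable (sva 3.50.0) and fits with libraries left out. Sequences are not used here, so promoter motifs were not searched.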

Additional observations from a re-analysis of the deposited data

How the results depend on the processing

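The count of members called was 0 under all 29 alternatives, and 1 of the tested members was higher in HFC (AURKB) under all 28. The median log2 fold change of the members ranged from -0.54 to -0.25 when 1 library was left out and from -0.52 to -0.34 otherwise. No member's log2 fold change changed sign. BIRC5 ranged from -1.31 (12 libraries) to -0.86 (limma-voom). Its adjusted p ran from 0.279 in DESeq2 to 1.0 in limma-voom. RRM2 was at -0.03 without HFC replicate 15. DESeq2 called 20 of all genes, none a member, where edgeR called 0. With at least 10 counts in every library, CCNB1 and BUB1 were not tested. The median r of BIRC5 with the other members, 0.16, was 0.33 without LFC replicates 3 and 7, and with 1 library left out its lowest value was 0.04 (HFC replicate 10 absent) and its highest 0.34 (LFC replicate 3 absent). It was 0.27 in the absence of LFC replicate 2. It was 0.07 with group means removed (members from -0.11 to 0.22), and 0.07 in the absence of HFC replicate 15. The causes were not tested. Depth of 6 to 283 counts per member and library limits small differences. No paired analysis was possible because the groups are made of different, unrelated animals and no pairing is given.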

Other observations

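The 10 genes most like BIRC5 alone, with group means removed and chosen after their values were seen, included no gene of the cell cycle lists. They were led by FASTKD1 (chromosome 15, 75895528 to 75929510; r = 0.80), PRORP (chromosome 7, 64620226 to 64763453; r = 0.75) and METTL8 (chromosome 15, 77474599 to 77565880; r = 0.73), and included IL2RG, a receptor subunit of lymphocytes (r = 0.70), and APOBEC3B, a cytidine deaminase (r = 0.69). With 16 libraries and 14318 genes compared, 0 passed an adjusted permutation p of 0.05 on log2 CPM without that removal.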
